A study of Homo sapiens with 6 samples.

Results

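The genes described here are 8 transcription factors that set the identity of lung epithelium: FOXA1, FOXA2, SOX2, SOX4, SOX9, GATA6, CEBPA and NKX2-1. They were taken from the deposited gene table by exact symbol, and all 8 have a row among its 61806 genes. RNA was sequenced from A549, a line derived from a human lung adenocarcinoma, labelled wild type in both groups. The tested cells received Japoflavone B, a compound that the study's title calls a PARP1 inhibitor, at a dose of 40 whose unit the labels do not state, and the control cells received DMSO, both for 24 h after 24 h of seeding. There were 3 libraries per group, and the labels do not say whether they came from separate cultures, so the p-values given here speak of library-to-library spread, which may be technical.

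FOXA1 and FOXA2 are pioneer factors that bind closed chromatin and open it for other factors in tissues derived from endoderm. SOX2 marks the proximal, conducting airway and its basal cells, whereas SOX9 marks the tips of the branching distal lung, and both belong to the SRY-box family together with SOX4. GATA6, CEBPA and NKX2-1 act in the distal lung, where NKX2-1 drives surfactant genes with GATA6, and CEBPA supports maturation of alveolar type 2 cells. Which of these factors a lung cancer cell keeps, and in what balance, is widely used to describe its lineage state.

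The libraries held 15733769 to 19822366 gene counts after Japoflavone B and 15298531 to 21744407 after DMSO. Mitochondrial genes took 8.33% to 8.58% of counts after Japoflavone B and 3.97% to 4.70% after DMSO. Of 16082 genes that passed a filter on low counts, 70% were called different (edgeR quasi-likelihood test, Benjamini-Hochberg adjusted p below 0.05), 34.7% higher and 35.4% lower. Against that background, 1 of the 7 lineage factors tested was called higher and 5 lower, while SOX9 was not called and NKX2-1 had too few counts to be tested. Of the 7, 3 were lower by 2-fold or more, against 15% of all genes tested, and 1 was higher by as much, against 9.67%. In FPKM, that is counts scaled by exonic length and by library total, the groups did not overlap in 6 of the 7, against 71.6% of genes tested. These shares come from 7 genes.

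RefSeq promoters (GRCh38.p14) of 5 of the 6 called factors are shown first, because they let SOX2, SOX4, FOXA1 and CEBPA, which fell, be compared with GATA6, which rose. The promoter of FOXA2 was not used here. Each is the 250 bases before the gene's RefSeq start, read 5′ to 3′ on the gene's strand, with capitals marking 3 kinds of box on either strand. These are the GC box, spelled GGGCGG, the box spelled by its name, CCAAT, and the TATA box, searched for as TATAAA. No box overlapped another.
SOX2, chr3:181711675-181711924, plus strand: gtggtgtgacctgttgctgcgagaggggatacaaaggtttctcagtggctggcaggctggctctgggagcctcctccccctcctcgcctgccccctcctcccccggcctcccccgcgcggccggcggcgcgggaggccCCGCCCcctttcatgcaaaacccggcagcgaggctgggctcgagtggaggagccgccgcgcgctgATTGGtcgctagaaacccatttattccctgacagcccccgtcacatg
SOX4, chr6:21593501-21593750, plus strand: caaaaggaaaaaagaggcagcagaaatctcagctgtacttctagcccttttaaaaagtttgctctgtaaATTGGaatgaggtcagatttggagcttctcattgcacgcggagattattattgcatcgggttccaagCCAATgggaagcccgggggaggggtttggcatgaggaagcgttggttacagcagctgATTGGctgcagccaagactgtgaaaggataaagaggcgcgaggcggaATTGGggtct
FOXA1, chr14:37595250-37595499, minus strand: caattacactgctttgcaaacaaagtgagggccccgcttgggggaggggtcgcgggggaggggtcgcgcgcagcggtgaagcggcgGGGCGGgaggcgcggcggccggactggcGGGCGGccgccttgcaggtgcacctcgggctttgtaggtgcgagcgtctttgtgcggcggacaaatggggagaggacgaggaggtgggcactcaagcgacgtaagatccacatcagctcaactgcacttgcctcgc
CEBPA, chr19:33302535-33302784, minus strand: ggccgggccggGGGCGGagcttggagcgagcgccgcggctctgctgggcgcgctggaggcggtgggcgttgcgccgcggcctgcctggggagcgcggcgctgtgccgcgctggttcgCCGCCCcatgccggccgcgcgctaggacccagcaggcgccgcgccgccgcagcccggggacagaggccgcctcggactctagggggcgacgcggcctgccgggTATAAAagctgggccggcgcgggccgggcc
GATA6, chr18:22169339-22169588, plus strand: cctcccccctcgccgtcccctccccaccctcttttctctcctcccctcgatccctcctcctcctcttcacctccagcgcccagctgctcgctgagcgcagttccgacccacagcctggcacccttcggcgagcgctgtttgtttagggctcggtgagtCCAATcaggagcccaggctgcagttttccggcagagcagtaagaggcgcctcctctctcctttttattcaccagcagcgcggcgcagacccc

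The CCAAT box was found in SOX2 (1 match), SOX4 (4 matches) and GATA6 (1 match), and 32.0% of 34943 promoters of that length hold it. FOXA1 and CEBPA had 2 GC boxes each and SOX2 had 1, a motif present in 42.5% of promoters. Only CEBPA among the 5 windows held a TATA box, 30 bases before the start, against 10.8% of all promoters. The GC content was 68.8% for SOX2, 48.8% for SOX4, 67.2% for FOXA1, 81.2% for CEBPA and 64.4% for GATA6, with a median of 58.0% over all promoters. Further short strings were searched on both strands, and each match is of letters only. The SOX string CTTTGT was found 3 times in FOXA1 and once in SOX2, and 13.7% of promoters hold it. None of the 5 windows held the E-box CACGTG, which 6.32% of promoters hold, the FOXA string TGTTTAC (2.98%) or the GATA string AGATAA (9.19%). The same was true of the CRE string TGACGTCA (1.63%), the C/EBP string TTGCGCAA (0.132%), the AP-1 string TGANTCA (6.59%) and the EGR1 string GCGTGGGCG (0.721%). No box or string searched was present in the windows of SOX2, SOX4, FOXA1 and CEBPA alike and absent from that of GATA6. The RefSeq start equals the start of the gene in the deposited table for SOX2, SOX4, CEBPA and GATA6, but lies inside the gene for FOXA1.

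The pioneer factor FOXA1 (ENSG00000129514, chromosome 14, 37589552 to 37596059, minus strand) fell. Its level was 5.23, 5.01 and 4.64 FPKM after Japoflavone B, against 13.17, 13.63 and 12.84 FPKM after DMSO. All treated libraries were below all DMSO libraries, with a log2 fold change of -1.31 ± 0.07 (SE; edgeR adjusted p = 5.38e-15), or 2.48-fold lower. FOXA2 (ENSG00000125798, chromosome 20, 22580998 to 22585455, minus strand), its close paralog, also fell. FOXA2 stood at 14.01, 13.79 and 13.21 FPKM after Japoflavone B, against 16.56, 17.35 and 18.37 FPKM after DMSO. These groups did not overlap either, and the fitted change was -0.25 ± 0.07 log2 (edgeR adjusted p = 0.00334), or 1.19-fold lower.

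SOX2 (ENSG00000181449, chromosome 3, 181711925 to 181714436, plus strand) fell to a trace. It had 2, 1 and 2 counts after Japoflavone B, against 90, 94 and 76 counts after DMSO, or 0.04, 0.03 and 0.04 FPKM against 1.72, 1.72 and 1.98 FPKM. The sums of 5 and 260 counts, set against the library totals, made SOX2 48.5-fold lower with an exact 95% binomial interval of 20.5 to 151, which covers counting error only. The fitted change was -5.41 ± 0.40 log2 (edgeR adjusted p = 1.76e-12), the seventh lowest of 16082 genes. Among the 11401 tested genes with at least as many DMSO counts as SOX2, 2 had a lower fold change, the helicase gene PIF1 (-5.91 log2) and PRRT1B (-5.49 log2), both named after their values were seen. SOX2 passed the filter through its DMSO libraries alone, so among genes that passed in this way a difference was built in. On log2(FPKM + 1) its change shrinks to -1.44 and on log2(FPKM + 0.1) to -3.80, since the added constant is large beside its level.

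The other SRY-box factors went separate ways. SOX4 (ENSG00000124766, chromosome 6, 21593751 to 21598619, plus strand), a factor of progenitor cells that is high in many carcinomas, had 9.40, 8.60 and 9.16 FPKM after Japoflavone B, against 26.89, 27.85 and 27.49 FPKM after DMSO. The groups were well apart, and SOX4 fell by 1.49 on the log2 scale (SE 0.06; edgeR adjusted p = 1.54e-18), 2.82-fold lower. SOX9 (ENSG00000125398, chromosome 17, 72121020 to 72126416, plus strand) had 8.24, 7.15 and 7.26 FPKM after Japoflavone B, against 7.63, 6.80 and 8.23 FPKM after DMSO. These ranges overlapped, and the fitted change of 0.11 ± 0.09 log2 did not pass (edgeR adjusted p = 0.276). Its 95% interval of -0.07 to 0.29 log2 spans 0.951 to 1.22 times the DMSO level.

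GATA6 (ENSG00000141448, chromosome 18, 22169589 to 22202528, plus strand), a zinc finger factor of endoderm and distal lung, was the one member that rose. It had 130, 115 and 115 counts after Japoflavone B, against 46, 71 and 62 counts after DMSO, which is 1.73, 1.92 and 1.64 FPKM against 0.58, 0.86 and 1.07 FPKM. The lowest treated library was above the highest DMSO library, although the DMSO libraries were widely spread. The change was 1.20 ± 0.20 log2 (edgeR adjusted p = 4.79e-06), or 2.29-fold higher, and on log2(FPKM + 1), where the constant is near the DMSO level, it was 0.60.

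CEBPA (ENSG00000245848, chromosome 19, 33299934 to 33302534, minus strand), a leucine zipper factor that restrains division and drives differentiation, fell moderately. It had 86 counts in each of the 3 Japoflavone B libraries, against 162, 194 and 124 counts after DMSO, or 1.67, 2.10 and 1.79 FPKM against 2.99, 3.43 and 3.12 FPKM. No treated library reached a DMSO library, and the change was -0.68 ± 0.16 log2 (edgeR adjusted p = 0.000348), or 1.61-fold lower. NKX2-1 (ENSG00000136352, chromosome 14, 36516392 to 36521149, minus strand), the factor that defines the lung lineage in the embryo, had 2, 0 and 2 counts after Japoflavone B and 2, 0 and 0 counts after DMSO. At this depth a difference in NKX2-1 was not detectable: the ratio of 2.14 per library total had an exact 95% binomial interval of 0.307 to 23.7.

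**Figure D1:**
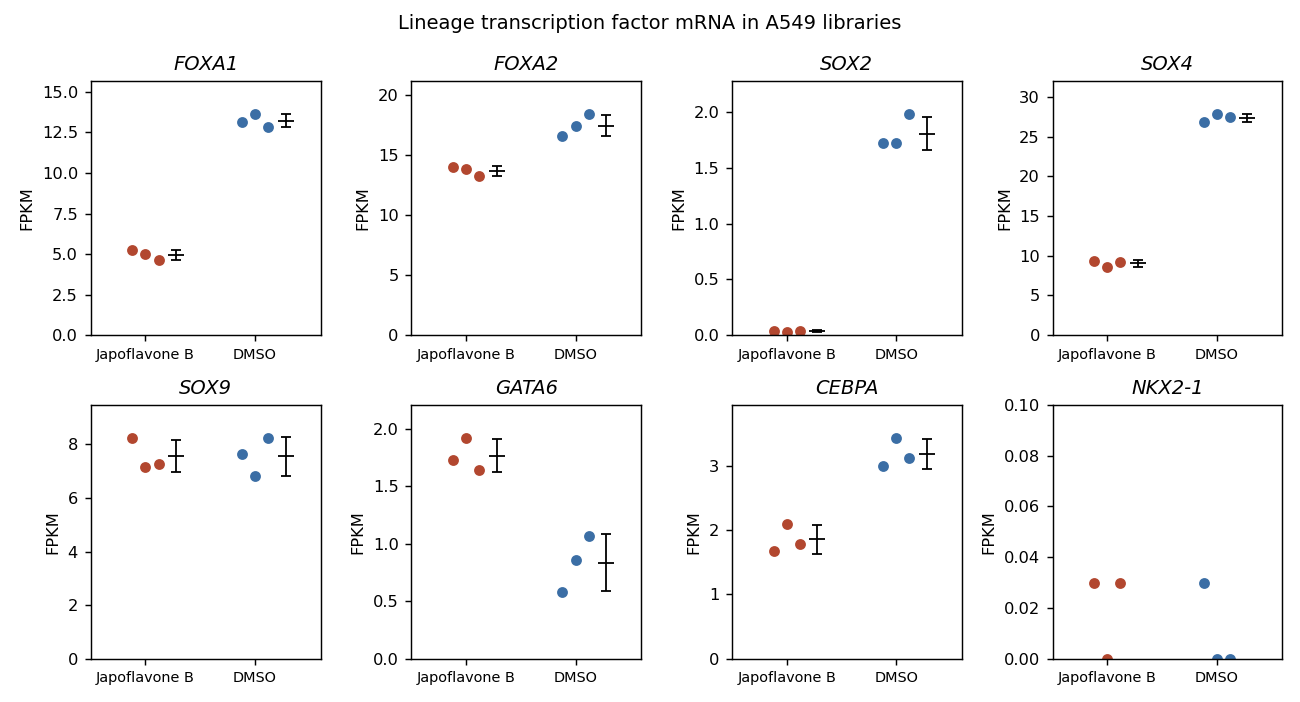
Level of each of the 8 lineage factors in FPKM (vertical axes, each from 0 and on its own scale) in 3 Japoflavone B and 3 DMSO libraries (points), with mean and SD as bars except for NKX2-1, which has 0 to 2 counts per library. Treated and DMSO points are apart for FOXA1, FOXA2, SOX2, SOX4, GATA6 and CEBPA and overlap for SOX9 and NKX2-1.

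An exact permutation test, two-sided and run on log2 CPM of single genes, cannot go below p = 0.1 with 3 libraries against 3. This exact test reached that bound for each of the 6 called factors and gave p = 0.4 for SOX9. SOX2, SOX4 and CEBPA have no intron in the deposited table, where exonic size equals the span of the gene. Reads could be confused with overlapping genes, since the strand setting of the counting is not given in the sources used here. In GENCODE 29, exons of antisense genes cover up to 659 of 2631 exonic bases of CEBPA and 321 of 3945 bases of GATA6, whereas no other gene's exons overlap those of SOX2 or SOX9. In bulk RNA, fewer cells that express a factor and less RNA of it per cell cannot be told apart.

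**Figure D2:**
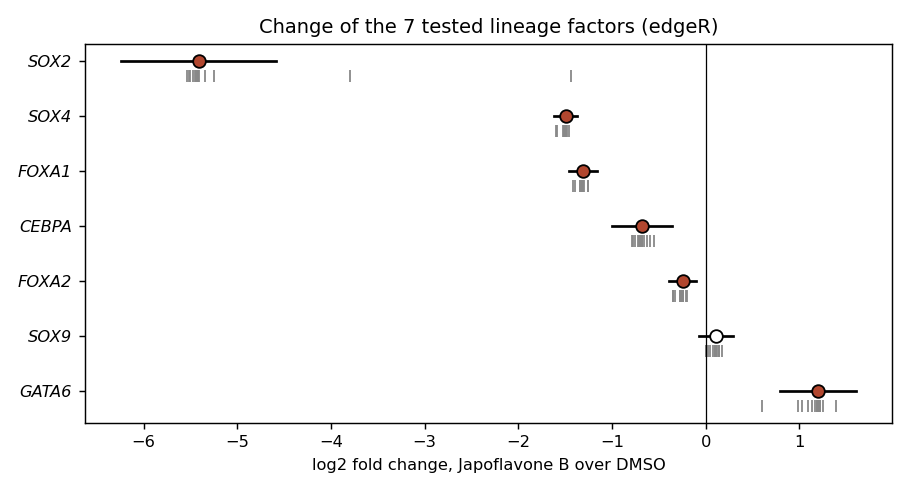
Fitted log2 fold change of the 7 tested factors (horizontal axis, Japoflavone B over DMSO; circles, filled where adjusted p is below 0.05) with 95% intervals as lines and the values under the other settings as grey ticks. SOX2 stands at -5.41 and GATA6 at 1.20, and the interval of SOX9 includes 0; the 2 isolated ticks of SOX2 are the fits on log2(FPKM + 0.1) and log2(FPKM + 1).

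The order of the factors by level per exonic length was different in the groups. After Japoflavone B the order was FOXA2 (mean 13.7 FPKM), SOX4 (9.05), SOX9 (7.55), FOXA1 (4.96), CEBPA (1.85), GATA6 (1.76), SOX2 (0.0367 FPKM) and NKX2-1. In DMSO cells it was SOX4 (27.4 FPKM), FOXA2 (17.4), FOXA1 (13.2), SOX9 (7.55), CEBPA (3.18), SOX2 (1.81), GATA6 (0.837 FPKM) and NKX2-1. Neighbours in these orders were apart in every library except CEBPA and GATA6, and SOX2 and NKX2-1, which overlapped after Japoflavone B. Summed over the 8 factors the level was 37.8 to 40.4 FPKM after Japoflavone B and 69.6 to 73.1 FPKM after DMSO. Among all genes tested, SOX4 was above 72.2% of genes after Japoflavone B and above 90.7% after DMSO, and SOX2 was above 0.734% and 35.4% of them.

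Ratios of 2 factors within a library do not depend on how libraries are scaled, and all 5 ratios that were computed separated the groups. Every pair held a factor whose groups did not overlap, so the separation restates those changes and is not separate evidence. FOXA1 counts per exonic base were 0.374, 0.363 and 0.352 of those of FOXA2 after Japoflavone B, against 0.795, 0.785 and 0.699 after DMSO, a difference of -1.06 log2. The ratio of SOX4 to SOX9 was 1.14, 1.20 and 1.26 after Japoflavone B, against 3.52, 4.10 and 3.34 after DMSO, so that the excess of SOX4 over SOX9 was small in treated cells (difference -1.60 log2). SOX9 exceeded SOX2 by 205, 282 and 168 times after Japoflavone B, against 4.44, 3.95 and 4.16 times after DMSO, with 1 or 2 SOX2 counts behind each treated value. The ratio of SOX4 to SOX2 moved by 4.08 log2 in the same direction. FOXA2 was 8.11, 7.17 and 8.04 times GATA6 after Japoflavone B, against 28.5, 20.2 and 17.2 times after DMSO (difference -1.47 log2). The exact two-sided permutation test gave p = 0.1 for each of the 5 ratios, also after Benjamini-Hochberg adjustment over the 5, the smallest p it can give.

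**Figure D3:**
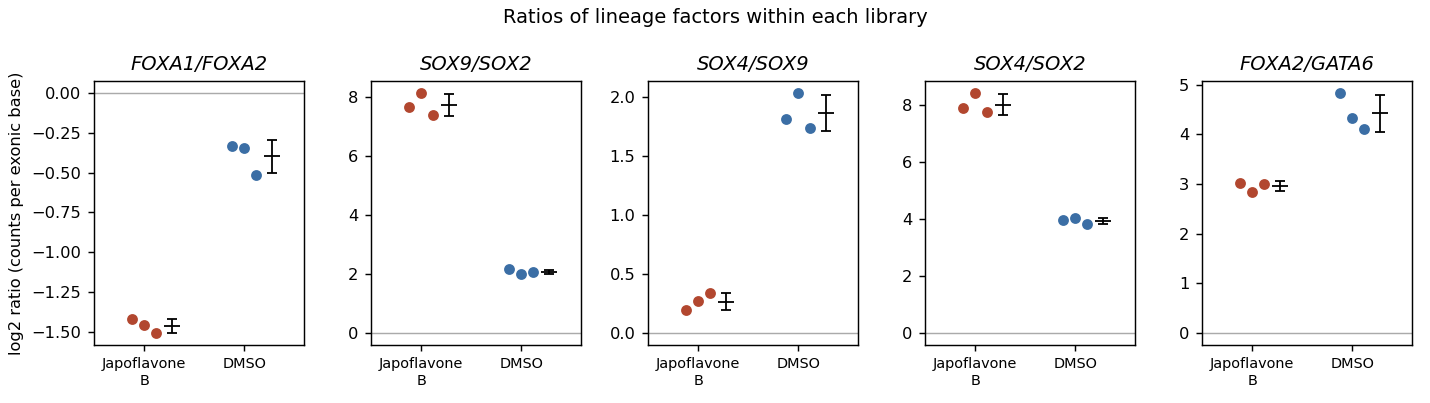
Ratios of 5 pairs of lineage factors within each library, as log2 of counts per exonic base (vertical axes), for 3 Japoflavone B and 3 DMSO libraries (points; bars are mean and SD; grey line, equal levels). FOXA1/FOXA2, SOX4/SOX9 and FOXA2/GATA6 were lower after Japoflavone B in all 3 libraries, and both ratios over SOX2 were higher.

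Several lineage factors have a noncoding gene beside them. The 3 of these that passed the filter on low counts all fell, against 35.4% of all genes tested. LINC00261, which starts 2355 bases beyond the 3′ end of FOXA2 on the same strand (chromosome 20, 22547663 to 22578642), had 13, 16 and 20 counts after Japoflavone B, against 177, 136 and 84 counts after DMSO. It fell by 2.79 on the log2 scale (SE 0.25; edgeR adjusted p = 1.14e-10), or 6.91-fold lower, where FOXA2 itself was 1.19-fold lower. CEBPA-DT, which begins 322 bases from CEBPA on the other strand (chromosome 19, 33302857 to 33305054), so that the CEBPA window printed above lies wholly between both genes, had 12, 16 and 12 counts after Japoflavone B, against 32, 49 and 32 after DMSO. Its change of -1.28 ± 0.35 log2 (edgeR adjusted p = 0.00189) had the direction of that of CEBPA. CASC15, 65564 bases from SOX4 on the same strand, had 52, 42 and 39 counts after Japoflavone B, against 126, 117 and 81 after DMSO (-1.08 ± 0.20 log2). The remaining neighbours had few reads. SOX2-OT, a long transcript whose span contains SOX2, had 12 counts after Japoflavone B and 5 after DMSO, SOX9-AS1 had 28 and 15, GATA6-AS1 had 5 and 4, and NKX2-1-AS1 and SFTA3 had none in any library.

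**Figure D4:**
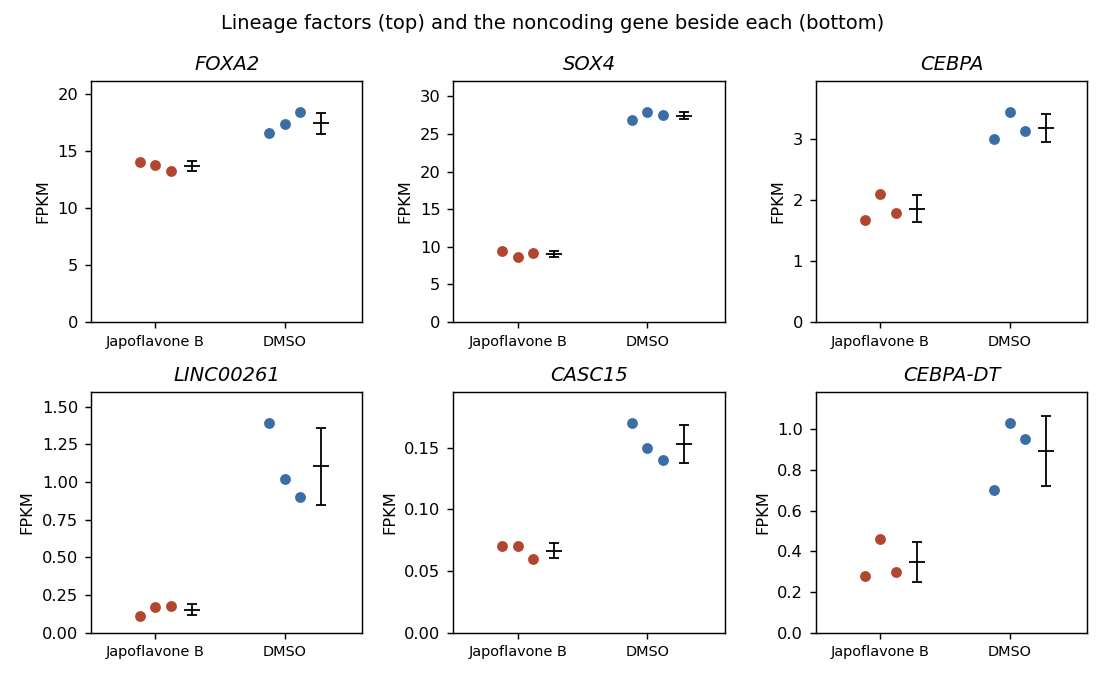
FPKM per library (vertical axes from 0, each on its own scale; points with mean and SD) of FOXA2, SOX4 and CEBPA above and of the noncoding genes LINC00261, CASC15 and CEBPA-DT below. In each panel all Japoflavone B libraries are below all DMSO libraries; the fitted change is -2.79 log2 for LINC00261 and -0.25 log2 for FOXA2.

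Of 9 tested genes for factors that work with FOXA proteins in endoderm, 5 fell and 2 rose, against 35.4% lower and 34.7% higher among all genes tested, with a median of -1.06 log2, against -0.0038 over all genes tested. HNF4A, a nuclear receptor of liver and gut epithelium, had 0.55, 0.63 and 0.75 FPKM after Japoflavone B, against 2.72, 2.84 and 2.61 after DMSO (-1.98 ± 0.11 log2; edgeR adjusted p = 7.62e-15). The nuclear receptor NR5A2 changed by -1.49 ± 0.09 log2, and HNF4G, which was below 1 FPKM, by -2.56 log2. Those that rose were PROX1, with 67 counts against 2, and ONECUT2 (0.37 log2). PROX1 passed the filter through its Japoflavone B libraries alone, so among genes that passed in this way a difference was built in. The ONECUT2 call was lost with library totals alone (adjusted p = 0.0929) and when single libraries were left out (adjusted p up to 0.139). It was also lost in both limma fits on log2 FPKM (adjusted p up to 0.247).

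The other members of the SOX and GATA families moved in both directions, as did all genes tested (34.7% higher and 35.4% lower). Of 17 other SOX genes 9 were tested, of which 4 fell and 2 rose. SOX12, the most abundant of them, had 14.9 ± 1.05 FPKM after Japoflavone B and 23.7 ± 1.73 FPKM after DMSO (SD, n = 3; -0.57 ± 0.07 log2), and SOX13 did not pass (0.15 ± 0.12 log2, edgeR adjusted p = 0.279). The others that fell were SOX21, SOX18 and SOX15 (-2.23, -2.53 and -1.72 log2). SOX30 had 166 counts after Japoflavone B and 5 after DMSO, a ratio of 35.6 with an exact 95% binomial interval of 14.9 to 111, and SOX8 had 96 and 14 counts. SOX30 and SOX8 passed the filter through their Japoflavone B libraries alone, and SOX18 through its DMSO libraries alone. SOX21 and SOX15 reached the filter's level in every DMSO library but not in every treated library. Among genes that passed in these ways a difference was built in, and SOX12 was the only called gene outside them. Of 6 tested GATA genes and their FOG cofactors, 2 rose and 1 fell. ZFPM1, the gene of the cofactor FOG1, had 3.90, 3.83 and 3.78 FPKM after Japoflavone B, against 1.18, 1.55 and 1.30 after DMSO (1.61 ± 0.11 log2), and GATA2 changed by 0.77 ± 0.18 log2. GATA3 was not called (-0.24 ± 0.19 log2), and ZFPM2 fell by 0.90 on the log2 scale, a call lost without Japoflavone B replicate 3 or DMSO replicate 2 (adjusted p = 0.0515 and 0.0811).

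The C/EBP family, leucine zipper factors that pair with one another, moved in both directions. Of 5 tested genes listed with it besides CEBPA, 3 rose and 1 fell, against 34.7% higher and 35.4% lower among all genes tested. The remaining gene, CEBPZ, was listed for its name and is not counted as a leucine zipper factor. CEBPZ was not called (-0.04 ± 0.05 log2), although with library totals alone it was called lower (adjusted p = 0.0179), as in both limma fits on log2 FPKM. CEBPD, an acute-phase factor, had 6.04, 5.43 and 5.68 FPKM after Japoflavone B, against 23.43, 26.92 and 26.47 after DMSO (-2.06 ± 0.11 log2; edgeR adjusted p = 4.82e-16). CEBPG, a partner of the stress factor ATF4, had 53.83, 52.76 and 51.96 FPKM, against 21.84, 20.98 and 20.23 after DMSO (1.43 ± 0.05 log2). CEBPB stood at 119.25, 120.03 and 116.44 FPKM after Japoflavone B, against 78.59, 91.38 and 95.37 after DMSO (0.53 ± 0.06 log2). DDIT3, which encodes the stress factor CHOP that pairs with C/EBP proteins, rose by 2.85 ± 0.12 log2.

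Among 38 other transcription factors of airway and alveolar cells, 30 were tested, of which 16 fell and 9 rose, against 35.4% lower and 34.7% higher among all genes tested, with a median of -0.39 log2. With library totals alone the counts were 18 and 8. ELF3, an epithelial ETS factor, had 9.11, 8.81 and 8.26 FPKM after Japoflavone B, against 25.05, 27.92 and 27.17 after DMSO (-1.51 ± 0.06 log2; edgeR adjusted p = 1.32e-18). The basal cell factor TP63 had 12, 5 and 13 counts after Japoflavone B, against 195, 179 and 96 after DMSO (-3.74 ± 0.26 log2). The retinoic acid receptor RARB changed by -1.79 ± 0.11 log2 and the cell cycle factor FOXM1 by -0.88 ± 0.06 log2. Among the 30, 8 were lower by 2-fold or more, against 15% of all genes tested. In the other direction 2 were higher by as much, against 9.67%, namely SNAI2 and HEY1, both below 1 FPKM. HEY1 passed the filter through its Japoflavone B libraries alone, and SNAI2 reached the filter's level in every treated library but not in every DMSO library. For TP63 and SPDEF, among those that fell, every DMSO library reached it but not every treated library. Among genes that passed in these ways a difference was built in. The alveolar factor HOPX had no count in any library, and the ciliated cell factor FOXJ1 had 2 counts in each group.

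**Figure D5:**
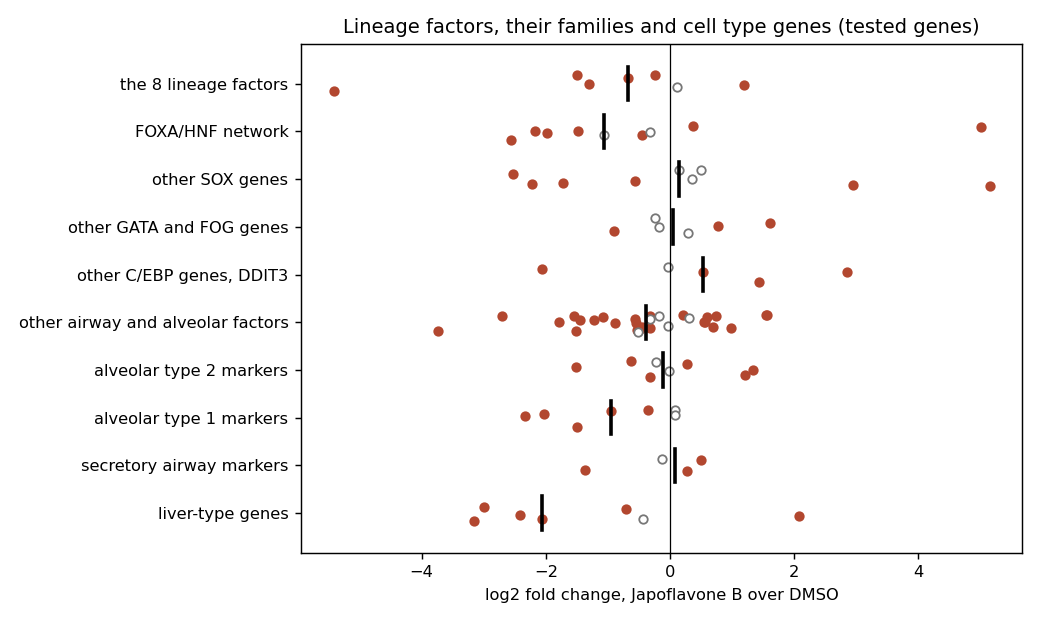
Log2 fold change (horizontal axis, Japoflavone B over DMSO) of the tested genes of each list (points, filled where adjusted p is below 0.05), with the list median as a bar and the median of all genes tested as a vertical line. The medians of the lineage factors (-0.68) and the FOXA/HNF network (-1.06) are below 0, while those of the other SOX and GATA genes are 0.15 and 0.05, the GATA median turning to -0.05 with library totals alone.

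Genes that encode cofactors or modifiers of these factors were split, with 5 of 15 higher and 7 lower, close to the shares of all genes tested (34.7% and 35.4%). TRIB3, a pseudokinase of the Tribbles family, had 50.3 ± 1.10 FPKM after Japoflavone B and 11.3 ± 0.721 FPKM after DMSO (SD, n = 3; 2.26 ± 0.06 log2). MDM2 and FBXW7, ubiquitin ligase genes, changed by 2.47 ± 0.05 and 1.14 ± 0.09 log2, and the orphan nuclear receptor NR2F6 by -0.94 ± 0.08 log2 (edgeR adjusted p = 3.88e-11).

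The genes that mark alveolar type 2 cells, the cell type that A549 is often used to model, showed that the defining surfactant genes were almost silent in both groups. SFTPA1, SFTPB and SFTPC had 1, 2 and 5 counts summed over the Japoflavone B libraries and 0, 0 and 5 over the DMSO libraries, beside the near absence of NKX2-1. SFTPA2, which shares most of its sequence with SFTPA1, had 37 counts after Japoflavone B and 3 after DMSO, a ratio of 13.2 with an exact 95% binomial interval of 4.19 to 67.0, and SFTPD had 2 and 19. Of 8 tested type 2 markers, 3 rose and 3 fell, against 34.7% higher and 35.4% lower among all genes tested. ABCA3, the lipid transporter of lamellar bodies, had 22.62, 21.77 and 21.82 FPKM after Japoflavone B, against 9.91, 10.51 and 10.20 after DMSO (1.21 ± 0.05 log2; edgeR adjusted p = 2.24e-17), and LAMP1 changed by 0.27 ± 0.06 log2. MUC1 changed by -1.51 ± 0.23 log2 and CTSH by -0.32 ± 0.10 log2, a call lost without Japoflavone B replicate 3 (-0.21 log2, adjusted p = 0.0968). The other calls were HHIP (-0.63 log2; adjusted p = 0.0762 without DMSO replicate 1) and LAMP3 (1.33 log2; 0.72 log2 and adjusted p = 0.275 without Japoflavone B replicate 2, and adjusted p = 0.0834 without DMSO replicate 3). The LAMP3 call was also lost in both limma fits on log2 FPKM.

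Of 7 tested markers of alveolar type 1 cells 5 fell, against 35.4% of all genes tested, with a median of -0.95 log2. In the fit of genes with a mean of at least 1 FPKM, which held 4 of them, 2 fell and the median was -0.17 log2. EMP2, a membrane protein of type 1 cells, had 2.09, 2.20 and 2.16 FPKM after Japoflavone B, against 10.72, 11.63 and 12.78 after DMSO (-2.34 ± 0.08 log2; edgeR adjusted p = 1.9e-20). RTKN2, AGER and CAV1 changed by -1.49 ± 0.15, -0.95 ± 0.30 and -0.36 ± 0.05 log2. Of 4 tested markers of secretory cells 1 fell and 2 rose, against 35.4% lower and 34.7% higher among all genes tested. Their median was 0.07 log2, and -0.03 log2 where libraries were scaled by totals alone. FCGBP, a protein of mucus, had 1.99, 1.91 and 1.73 FPKM after Japoflavone B, against 1.42, 1.19 and 1.68 after DMSO, and rose (0.51 ± 0.11 log2; edgeR adjusted p = 0.00016). The gel-forming mucin gene MUC5AC had 3.30, 3.13 and 3.95 FPKM after Japoflavone B, against 3.69, 2.55 and 2.93 after DMSO. These ranges overlapped, and its call as higher (0.28 ± 0.10 log2) was lost in DESeq2 (adjusted p = 0.181), with library totals alone (adjusted p = 0.111) and without Japoflavone B replicate 3 or DMSO replicate 2 (0.18 and 0.15 log2, adjusted p = 0.127 and 0.183). The MUC5AC call was also lost in both limma fits on log2 FPKM (adjusted p up to 0.309). The marker that fell was AGR2. This endoplasmic reticulum protein, needed for mucin folding, had 27.80, 28.28 and 27.77 FPKM after Japoflavone B, against 77.72, 75.74 and 79.91 after DMSO (-1.37 ± 0.05 log2). The mucin gene MUC5B was not called (-0.13 ± 0.10 log2), but was called lower without DMSO replicate 2 (-0.27 log2, adjusted p = 0.0136) and with library totals alone (adjusted p = 0.0368). The club cell genes SCGB1A1, SCGB3A1 and SCGB3A2 had no count in any library. Of 7 tested liver-type genes, known targets of FOXA and HNF factors in liver, 5 fell, against 35.4% of all genes tested. In the other direction 1 rose by 2-fold or more, a call lost on log2(FPKM + 1). The median of the 7 was -2.05 log2. FGA had 5.00 ± 0.252 FPKM after Japoflavone B and 47.7 ± 1.28 FPKM after DMSO (SD, n = 3; -3.15 ± 0.07 log2). The fibrinogen genes FGG and FGB and the urea cycle gene CPS1 changed by -2.99, -2.41 and -2.05 log2.

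Markers of other cells and of epithelium in general were read beside these results. General epithelial markers summed to 563 to 597 FPKM after Japoflavone B and 1149 to 1318 FPKM after DMSO. Of 7 tested, 5 fell, against 35.4% of all genes tested, and 2 were not called. KRT18 fell by 1.73 ± 0.05 on the log2 scale. KRT8, CDH1 and KRT7 changed by -1.51, -1.85 and -0.41 log2. Fibroblast markers summed to 36.7 to 41.9 FPKM after Japoflavone B and 10.34 to 10.98 FPKM after DMSO, of which ACTA2 was 39.3 ± 2.84 and 5.45 ± 0.0404 FPKM (SD, n = 3). Of the 5 fibroblast markers tested, 1 rose and 2 fell, against 34.7% higher and 35.4% lower among all genes tested. COL1A1 fell by 3.18 ± 0.11 on the log2 scale, and DCN and LUM had 3 to 11 counts per group. Endothelial markers summed to at most 0.0300 FPKM after Japoflavone B and 0.0700 after DMSO, with VWF, KDR and TEK at 0. Immune markers summed to 0.630 to 0.830 FPKM after Japoflavone B and 2.66 to 3.19 FPKM after DMSO, carried by CD14 (-2.93 ± 0.33 log2), while CD3E and MS4A1 were at 0 and PTPRC had 0 and 2 counts. The part of these markers in the values of the lineage factors was not tested. With mitochondrial genes left out, the factors called were again 1 higher and 5 lower, with SOX2 at -5.41, SOX4 at -1.50 and GATA6 at 1.20 log2.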

How the data were processed

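Poly(A) RNA of A549 cells was sequenced in 3 libraries per group. Tools listed, with no role or order, in the submitters' processing notes are HISAT2 2.0.1, HTSeq 0.6.1, DESeq2 and cutadapt 1.9.1, with the build GRCh38. The annotation release and the strand setting are not given in the sources used here. The deposited table holds raw counts per gene that the authors made, and FPKM that the authors computed from them, exonic gene sizes and column totals (recomputed values differed by at most 0.005). Exonic gene sizes are in bases, per the file headers.

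Counts were filtered by filterByExpr (minimum count 10, minimum total 15), scaled with TMM factors (0.957 to 0.970 for Japoflavone B, 1.03 to 1.04 for DMSO) and fitted with edgeR 4.0.16 in R 4.3.3 (quasi-likelihood, group as the single term, Benjamini-Hochberg over all genes, threshold 0.05). A scarce gene can pass this filter through the libraries of a single group, and among such genes a difference is built in. Since FPKM use library totals alone, ratios of FPKM differ slightly from fitted folds. The standard error is the absolute log2 fold change divided by the square root of its F. Log2 CPM used a prior count of 2. The workflow was tested on simulated data in which few genes changed, evenly in both directions. That test does not cover a change as wide as the one seen here. Replicates of a group differed by more than counting noise (chi-square per degree of freedom 2.48 to 7.35).

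Alternatives were 2 other filters, 3 scalings, DESeq2 1.42.0, limma 3.58.1 on log2 FPKM with 2 constants, a replicate block and leaving out each library; leaving out mitochondrial genes was added after seeing the data. The named genes are the 8 factors, from every list up to 4 genes with the smallest adjusted p that reached 1 FPKM in a group, and the noncoding neighbours. Other genes named were chosen after their values were seen, and a few genes that the rule names are not reported here. The members and the lists were chosen with earlier results of these data known. Intervals of ratios of counts cover counting error only, since the counts were summed over the libraries of each group. The labels mention no molecular identifiers.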

Additional observations from a re-analysis of the deposited data

How the results depend on the processing

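Under the 16 alternatives run, SOX4, FOXA1, FOXA2, CEBPA and GATA6 kept their direction and their call, as did SOX2 under the 15 in which it was tested, and SOX9 was called in none. Requiring a mean of 1 FPKM left SOX2 out, so 4 factors were called lower there; the FOXA and HNF list then had 3 genes lower and 0 higher, the other SOX genes 1 and 0, and no noncoding neighbour was tested. With no filter 5 type 2 markers were lower and 4 higher, against 3 and 3, and their median was 0.19 log2, against -0.12. Log2 changes ran from -1.60 to -1.46 for SOX4, from -1.41 to -1.25 for FOXA1, from -0.35 to -0.20 for FOXA2 (adjusted p up to 0.0276), from -0.79 to -0.55 for CEBPA, from 0.60 to 1.39 for GATA6 (0.99 to 1.39 when single libraries were left out) and from 0.00056 to 0.18 for SOX9 (adjusted p from 0.0911 to 0.996). Leaving out single libraries gave -5.53 to -5.25 for SOX2. Scaling by library totals alone moved the median of all genes by -0.10 log2 and the share of calls that were higher to 42.4%, against 49.5%, and turned the median of the GATA list to -0.05 log2, against 0.05, and that of the secretory list to -0.03 log2, against 0.07.

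The replicate numbers did not pair the libraries (correlations of deviations 0.013, -0.0042 and -0.045). With the number as a replicate block, 5502 genes were called higher and 5618 lower, against 5577 and 5686 without it, and the factors called were again 1 higher and 5 lower. SOX2 and NKX2-1 are limited by depth in the treated libraries, where 1 count is 0.0504 to 0.0636 CPM.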

Other observations

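Genes of basal, ciliated and neuroendocrine cells, which are other cell types of the airway, were mostly scarce in A549. KRT5, the keratin of basal cells, had no count. Of 4 basal markers tested, NGFR rose (3.30 log2), with 131 counts after Japoflavone B and 15 after DMSO, and KRT15 and S100A2 rose by 1.30 and 0.87 log2 while TP63 fell. Among all genes tested 34.7% were higher and 35.4% lower. The call of KRT15 was lost without Japoflavone B replicate 2 or DMSO replicate 2 (adjusted p = 0.121 and 0.0931), and that of S100A2 without Japoflavone B replicate 1 or DMSO replicate 1 (adjusted p = 0.105 and 0.0926). Of 5 ciliated markers tested 4 fell, against 35.4% of all genes tested. In DESeq2 3 fell, and in the fit of genes with a mean of at least 1 FPKM 1 of 2 fell. The 4 included the axonemal dynein DNAH5 (-2.04 log2) and the tubulin TUBB4B, which is not restricted to cilia. TUBB4B had 45.4 ± 2.28 FPKM after Japoflavone B and 205 ± 13.4 FPKM after DMSO (SD, n = 3; -2.07 ± 0.06 log2). CAPS was not called (0.48 log2, edgeR adjusted p = 0.109). Of 3 neuroendocrine markers tested, 1 rose, 1 fell and 1 was not called, beside the same shares of all genes tested (34.7% higher and 35.4% lower). SYP, a synaptic vesicle protein, had 1.08, 1.06 and 0.96 FPKM after Japoflavone B, against 0.79, 0.74 and 0.87 after DMSO (0.48 ± 0.15 log2; edgeR adjusted p = 0.00766). The SYP call was lost in the limma fit on log2(FPKM + 0.1), and its adjusted p was up to 0.0619 over the alternatives. CHGA fell (-1.01 log2), with 23 counts after Japoflavone B and 53 after DMSO, a call lost in DESeq2 (adjusted p = 0.0967), with the replicate block (adjusted p = 0.0618) and without any single library other than DMSO replicate 2 (adjusted p up to 0.152). UCHL1, an abundant neuroendocrine marker in these cells, had 176 ± 4.71 FPKM after Japoflavone B and 188 ± 12.7 FPKM after DMSO (SD, n = 3; 0.01 ± 0.05 log2, edgeR adjusted p = 0.897), whereas NEUROD1, GRP and CALCA had no count. Of 10 intestinal and gastric markers 1 could be tested and was not called (-0.04 log2).

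The genes whose log2 CPM over the 6 libraries, centred on each gene, lay closest to those of a factor are given as a description among about 11345 genes with a mean of at least 1 FPKM. The distance is the root mean square difference in log2 units. For FOXA1 they were CHAF1A (0.0180) and TPGS2 (0.0330), for SOX4 PLXND1 (0.0334) and PFAS (0.0368), for CEBPA PTRHD1 (0.0419) and SLC22A4 (0.0533), and for FOXA2 MTFP1 (0.0158) and TMEM109 (0.0201). Those closest to GATA6 were DPF1 (0.107) and ZNF408 (0.113), those closest to SOX9 C12orf75 (0.0404) and SLC41A2 (0.0418), and those closest to SOX2 PRRT1B (0.189) and DIO2 (0.239). All values share the same 6 libraries and mostly follow the difference between the groups.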
